A study of Mus musculus with 4 samples.

Results

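The genes examined here encode proteins of the efferent cholinergic synapse on outer hair cells (OHCs), the cells of the cochlea that amplify sound. Neurons of the brainstem release acetylcholine onto the base of the OHC, where it opens a channel built from the α9 and α10 subunits of the nicotinic receptor. Calcium enters through this channel and opens calcium-activated potassium channels, and the outflow of potassium inhibits the hair cell and lowers the gain of the cochlea. In the cochlea, the α9 and α10 subunits are known mainly from hair cells, whereas the potassium channels, acetylcholinesterase and rapsyn are also known from other cell types, such as neurons or muscle.

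The members are *Chrna9*, *Chrna10*, *Kcnn2*, *Kcnma1*, *Ache* and *Rapsn*, chosen by name as components of this synapse, and every array probe that carries one of these names was read. They make up 6 of the 30028 gene names and 11 of the 39429 probes on the array.

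RNA of whole cochleae was measured in a design of 2 genotypes by 2 treatments. The wild-type mice were B6J. The OHC-TRECK mice, also called *Prestin*-*hDTR*, carry on the same background a transgene in which the promoter of *Slc26a5* (prestin) drives a modified human receptor for diphtheria toxin (DT) in OHCs. Both DT-treated groups had received 50 μg/kg of DT 7 days before dissection, both other groups were untreated, and all mice were 5 weeks old. The labels give 8 per group, 4 females and 4 males, whose RNA was pooled onto 1 array, without making clear whether these are mice or cochleae, and 1 slide carried all 4 arrays. The OHC-TRECK mice came from 1 transgenic line, with the insertion in the E3 region of chromosome 14. With 1 array per group there is no replicate, so p-values are left out, and precision is limited by how few arrays there are.

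All levels below are log2 values of the background-subtracted signal after division by the 75th percentile of the array, so that 0 is the level of that percentile. Probes past 2-fold between a pair of arrays are called changed. Compared were probes well above background on 1 or both arrays of the pair, and a dim signal was first raised to the lowest one that was well above background on its array, which gives a fold of "at least" the value stated. A probe whose raised signal passed the measured one was given no fold and enters no median. Each of the 11 member probes stood well above background on every array, so that all their ratios are measured on both sides. The error of a level is the one the scanner software gives for a spot, which was at most 15.1% for these probes. This error holds a preset share of 0.1 of the signal, which makes up nearly all of it for bright probes. Over all probes with repeated spots, the median SD between spots was 0.06 to 0.07 on the log2 scale on each array. A ratio is set against 2 such errors, which leave out how mice vary. For bright probes this is a largely preset limit, so a ratio within 2 errors may still exceed the spread of repeated spots.

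The OHC labels were first checked against 7 markers of OHCs, all of them well above background on at least 1 array. Their summed normalized signal was 24.2 in untreated and 22.0 in DT-treated wild-type mice, 23.9 in untreated OHC-TRECK mice and 5.88 in DT-treated OHC-TRECK mice. *Ocm* (oncomodulin, a calcium-binding protein) was the brightest of them on these arrays and made up most of the sum, and the other markers summed to 3.68, 3.48, 3.55 and 1.95 in this order. *Slc26a5* itself was dim on all arrays, and in DT-treated OHC-TRECK mice it failed to stand well above background. The array labelled as DT-treated OHC-TRECK thus held the lowest signal of OHC markers of the 4. In RNA of whole cochleae, fewer cells of a type and less RNA per cell cannot be told apart from these arrays alone. By counts of stained cells, the paper reported the loss of almost all OHCs after DT in OHC-TRECK mice.

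*Chrna9* encodes the α9 subunit, which can form a receptor on its own. The probe for its mRNA, A_51_P381069 (mm9 chr5:66368450-66368509), had levels of -1.24 in untreated and -0.89 in DT-treated wild-type mice, -0.74 in untreated OHC-TRECK mice and -3.52 in DT-treated OHC-TRECK mice. The spot of DT-treated OHC-TRECK mice was the only low one, at an intensity of 273, whereas the others lay between 1154 and 1802. Even there the spot was 10.1 times as bright as its local background, so the low level was measured and is not a bound. Beside the wild-type mice that had also received DT, *Chrna9* was 6.16-fold lower in DT-treated OHC-TRECK mice, a log2 ratio of -2.62 with an error of 0.23. Set against untreated wild-type mice it was 4.84-fold lower, at -2.28 ± 0.23.

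*Chrna10* encodes the α10 subunit, which joins α9 in the native receptor and enlarges its current. Its only probe, A_55_P1991244 (mm9 chr7:109259781-109259840), had levels of 0.39 in untreated and 0.66 in DT-treated wild-type mice, 0.77 in untreated OHC-TRECK mice and -2.16 in DT-treated OHC-TRECK mice. The corresponding intensities were 3573, 5002, 5149 and 697. As for *Chrna9*, 3 arrays lay close together and DT-treated OHC-TRECK mice lay far below them. The difference was 7.09-fold from DT-treated wild-type mice (-2.82 ± 0.21) and 5.87-fold from untreated wild-type mice (-2.55 ± 0.21).

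Both subunits were among the most strongly reduced probes of the whole array. Of the 24229 probes measured well above background in both DT-treated and untreated OHC-TRECK mice, *Chrna10* had the 4th lowest and *Chrna9* the 6th lowest ratio. They ranked 6 and 8 of 23739 from the lowest against DT-treated wild-type mice, and 5 and 12 of 24105 against untreated wild-type mice. These 3 comparisons share the array of DT-treated OHC-TRECK mice and are therefore not independent of each other.

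The order of the 4 groups was the same for both subunits, with untreated OHC-TRECK mice highest, followed by DT-treated wild-type, untreated wild-type and DT-treated OHC-TRECK mice. Neighbours among the upper 3 did not differ beyond 2 errors. From the highest to the lowest of these 3, *Chrna9* spanned 1.41-fold and *Chrna10* 1.30-fold. The span of *Chrna9*, which is the ratio of untreated OHC-TRECK to untreated wild-type mice (0.50 ± 0.20), was past 2 errors, and that of *Chrna10* (0.38 ± 0.20) was not.

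**Figure D1:**
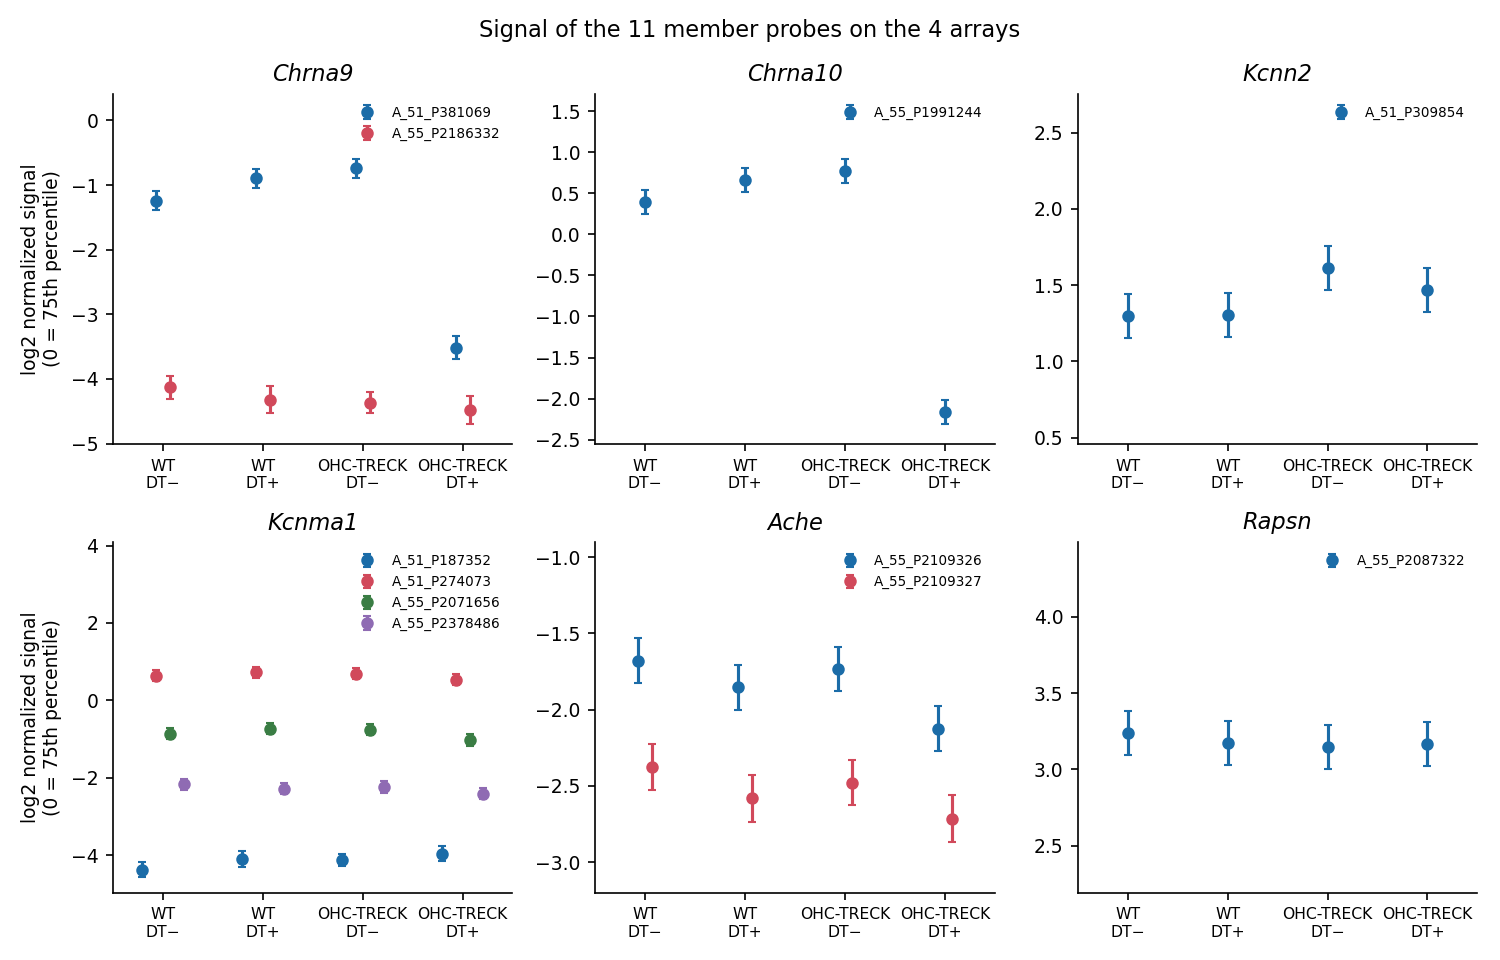
Log2 normalized signal (y axis; 0 is the 75th percentile of an array) of the 11 member probes on the 4 arrays (x axis), 1 panel per gene and 1 colour per probe, with bars for ± 1 spot error; y axes differ between panels. *Chrna10* and the mRNA probe of *Chrna9* drop to -2.16 and -3.52 in DT-treated OHC-TRECK mice, and the other 9 probes stay within 1.36-fold over the 4 arrays.

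The second *Chrna9* probe, A_55_P2186332, went a different way. It lies 32.9 kb upstream of the mRNA probe (mm9 chr5:66335518-66335577), and the array annotation assigns it to transcripts under the *Chrna9* name that include noncoding RNAs. Its levels were -4.13 in untreated and -4.32 in DT-treated wild-type mice, -4.37 in untreated OHC-TRECK mice and -4.49 in DT-treated OHC-TRECK mice, with intensities from 139 to 158. No pair of these arrays differed by more than 1.28-fold, and none of the ratios was past 2 errors. The log2 ratios of both *Chrna9* probes differed by -2.65 ± 0.36 in DT-treated against untreated OHC-TRECK mice, by -2.46 ± 0.38 with DT-treated and by -1.92 ± 0.36 with untreated wild-type mice as the reference. They were of opposite sign in the remaining 2 comparisons, where the mRNA probe was higher and the upstream probe lower than in untreated wild-type mice. This difference was 0.73 ± 0.31 in untreated OHC-TRECK mice, past 2 errors, and 0.54 ± 0.34 in DT-treated wild-type mice.

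The probes shared no run longer than 5 bases on either strand, so they read different stretches of RNA. The first 30 of the 60 bases of the *Chrna9* and *Chrna10* probes are printed, since the disagreement and the reductions rest on these oligonucleotides. They run 5′ to 3′ as in the array annotation, on the plus strand of mm9 for *Chrna9* and on the minus strand for *Chrna10*.
Chrna9 A_51_P381069: tgtcatgaccgtcttgatcatagcaagagc
Chrna9 A_55_P2186332: gagcctgcttctcaatgagccccccaaaat
Chrna10 A_55_P1991244: aaacagaaggctgtgcagacatttgactcg

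*Kcnn2* encodes SK2, the small-conductance potassium channel that calcium entering through the receptor opens in OHCs. Its probe, A_51_P309854 (mm9 chr18:45845292-45845351), is printed 10 times on each array, which gives the best view of the measurement error among the members. The levels were 1.30 in untreated and 1.31 in DT-treated wild-type mice, 1.61 in untreated OHC-TRECK mice and 1.47 in DT-treated OHC-TRECK mice. The SD over the 10 spots was between 0.05 and 0.07 on the log2 scale. Unlike the receptor subunits, *Kcnn2* was not lowest in DT-treated OHC-TRECK mice, where its spots ranged from 1.39 to 1.62, against 1.22 to 1.44 in untreated wild-type mice. Its log2 ratio was -0.14 in DT-treated against untreated OHC-TRECK mice and 0.17 against either wild-type group, all within 2 errors. The greatest distance was the 1.24-fold higher level in untreated OHC-TRECK than in untreated wild-type mice, between which the single spots did not overlap (1.55 to 1.73 in the former). By the software's error of 0.20, this log2 ratio of 0.31 was within 2 errors.

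*Kcnma1* encodes BK, the large-conductance channel that calcium and voltage open together and that serves the efferent synapse mainly in OHCs of the basal turns. The gene has 4 probes, named here from 5′ to 3′ along its minus strand on chromosome 14 (mm9). The first, A_51_P187352 at chr14:24130916-24130975, was dim, with levels of -4.37 in untreated and -4.09 in DT-treated wild-type mice, -4.12 in untreated OHC-TRECK mice and -3.96 in DT-treated OHC-TRECK mice. It was the only *Kcnma1* probe that was highest in DT-treated OHC-TRECK mice, at 0.16 above untreated OHC-TRECK mice on the log2 scale and 0.42 ± 0.27 above untreated wild-type mice.

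The other 3 *Kcnma1* probes were each lowest in DT-treated OHC-TRECK mice. A_55_P2378486 (chr14:24126279-24126338) had levels of -2.17 without and -2.28 with DT in wild-type mice, and of -2.23 without and -2.41 with DT in OHC-TRECK mice. A_55_P2071656 (chr14:24118701-24118760) had -0.86, -0.73, -0.76 and -1.02 in the same order of groups. A_51_P274073 (chr14:24111708-24111767) had 0.64, 0.73, 0.69 and 0.53. None of them was past 2 errors in any comparison, and the greatest distance among these 3 was 1.23-fold, that of A_55_P2071656 between both DT-treated groups. Over all pairs of *Kcnma1* probes in the 5 comparisons, 15 of 30 had log2 ratios of opposite sign, but 0 of the 30 differences were past 2 errors. In untreated OHC-TRECK against untreated wild-type mice, where the transgene is the contrast, the 4 probes had log2 ratios from -0.07 to 0.25.

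*Ache* encodes acetylcholinesterase, which ends the signal by cleaving acetylcholine in the synaptic cleft. Of its 2 probes, A_55_P2109326 (mm9 chr5:137733122-137733181) had levels of -1.68 in untreated and -1.85 in DT-treated wild-type mice, -1.73 in untreated OHC-TRECK mice and -2.13 in DT-treated OHC-TRECK mice. The probe 2.33 kb downstream, A_55_P2109327 (chr5:137735513-137735572), had -2.38, -2.58, -2.48 and -2.72. Both ordered the groups alike, with untreated wild-type mice highest and DT-treated OHC-TRECK mice lowest, and all 5 comparisons gave both the same sign. The lower level in DT-treated OHC-TRECK mice was small, at 1.31-fold and 1.18-fold against untreated OHC-TRECK mice, and 1.36-fold and 1.27-fold against untreated wild-type mice. Only the 1.36-fold value of A_55_P2109326 was past 2 errors, and neither probe came near 2-fold.

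*Rapsn* encodes rapsyn, a scaffold that clusters nicotinic receptors at the nerve-muscle junction and associates with the α9 subunit in hair cells. Its probe A_55_P2087322 (mm9 chr2:90885826-90885885) had levels of 3.24 in untreated and 3.17 in DT-treated wild-type mice, 3.15 in untreated OHC-TRECK mice and 3.17 in DT-treated OHC-TRECK mice. The whole range was 1.07-fold, the narrowest of all member probes, and no neighbours in the order of groups differed beyond the error. The sign of its ratio between both OHC-TRECK groups (0.02) turned with the background correction, and that between both DT-treated groups (0.00) with the scaling.

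**Figure D2:**
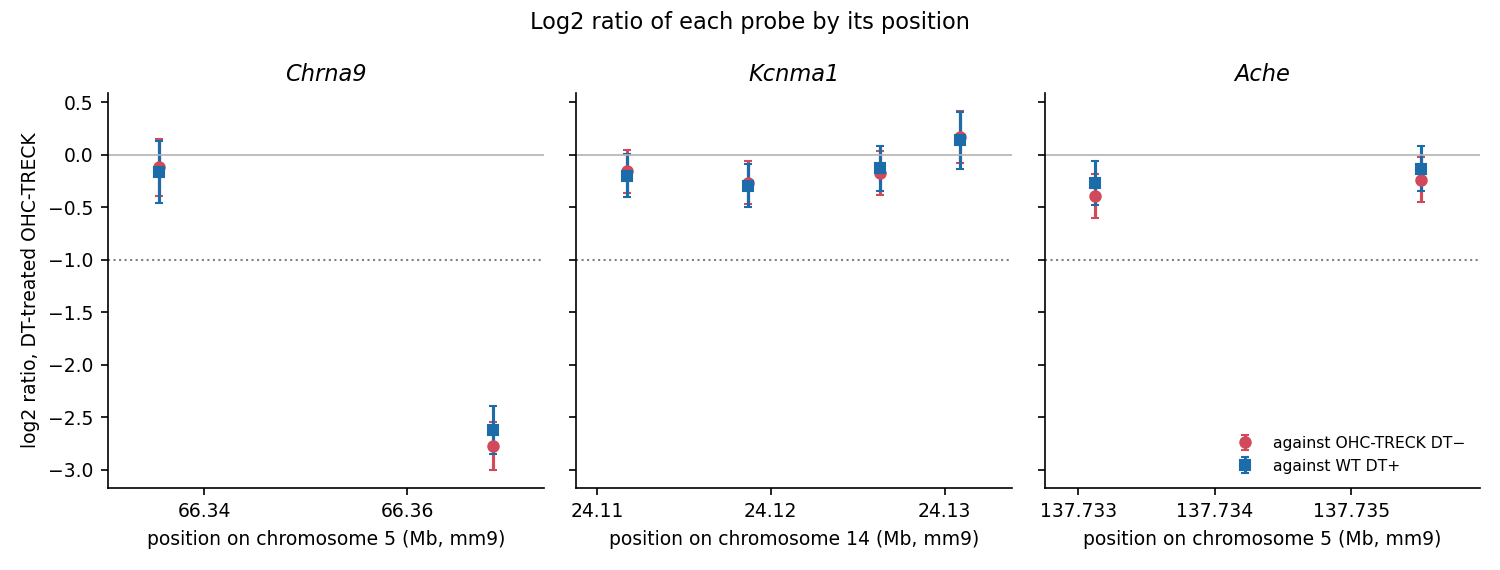
Log2 ratio (y axis) of DT-treated OHC-TRECK mice against untreated OHC-TRECK mice (circles) and DT-treated wild-type mice (squares) for each probe of *Chrna9*, *Kcnma1* and *Ache*, by its position in mm9 (x axis, Mb); bars are ± 1 error of the ratio and the dotted line marks a 2-fold decrease. The *Chrna9* probes differ by 2.65 and 2.46 in these ratios, whereas those of *Kcnma1* and of *Ache* do not differ past 2 errors.

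The effect of DT in the transgenic mice was read from DT-treated against untreated OHC-TRECK mice. Of the 11 member probes, 2 were at least 2-fold lower, *Chrna10* and the mRNA probe of *Chrna9*, against 1.35% of all 28082 probes compared, and 0 were higher, against 2.49%. The other 9 differed by at most 1.31-fold. The median log2 ratio was -0.17 over the member probes and 0.00 over all probes measured on both arrays.

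DT-treated OHC-TRECK mice were next set against DT-treated wild-type mice, which had received the toxin without the receptor. The same 2 probes were lower, where 1.83% of 25394 probes were, and 0 members were higher, where 1.41% were. Their median log2 ratio was -0.16, beside 0.01 over all measured probes. Against untreated wild-type mice, which differ in both the transgene and the toxin, 2 member probes were lower and 0 higher, with 1.95% and 1.96% of 26810 probes in these directions. The uncalled members reached at most 1.23-fold in the former and 1.36-fold in the latter comparison.

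The effect of the toxin alone was read from both wild-type groups, and that of the transgene alone from both untreated groups. In DT-treated against untreated wild-type mice, 0 member probes were lower and 0 were higher, beside 1.09% and 1.46% of 26727 probes. The greatest distance was that of *Chrna9*, 1.27-fold higher (0.35 ± 0.21), followed by *Kcnma1* A_51_P187352 and *Chrna10*, at log2 ratios of 0.28 and 0.27. In untreated OHC-TRECK against untreated wild-type mice the counts were again 0 and 0, beside 2.32% lower and 1.01% higher of 28327 probes. The members with the largest ratios there were *Chrna9* (1.41-fold), *Chrna10* (1.30-fold) and *Kcnn2* (1.24-fold), all higher in OHC-TRECK mice. They ranked 405, 622 and 904 from the highest of the 25915 probes measured on both arrays. Of the 11 member probes, 6 were higher and 5 lower in this comparison.

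The difference between the DT effects in OHC-TRECK and in wild-type mice takes all 4 arrays together. It was -3.12 ± 0.31 on the log2 scale for *Chrna9* and -3.21 ± 0.29 for *Chrna10*. For the other 9 member probes it lay between -0.40 and 0.09, none of them past 2 errors. Over all 23688 probes well above background on the 4 arrays, the median of this difference was 0.02 and the middle 95% ran from -0.66 to 0.74.

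The genes whose pattern over the 4 arrays was most like that of the receptor subunits were sought among 15257 named genes, each read by its brightest probe only. The measure was the distance between log2 levels, each centred on its own mean, to the mean profile of *Chrna9* and *Chrna10*, from which each subunit was 0.10 away. The median distance over all genes was 2.33. The nearest by these probes were *Strc* (stereocilin of the hair bundle, 0.35), *Myo15* (a myosin of stereocilia tips, 0.39), *Ocm* (0.47), *Ppp1r17* (a regulatory subunit of a protein phosphatase, 0.74) and *Vwa3a* (0.94). *Myo15*, for example, had levels of -0.93 without and -0.34 with DT in wild-type mice, and of -0.36 without and -2.82 with DT in OHC-TRECK mice. *Vwa3a* had -3.37, -3.08, -3.05 and -4.75 in the same order of groups. The other members were far from the profile, with distances of 2.37 for *Kcnn2*, 2.19 for *Kcnma1*, 2.03 for *Ache* and 2.33 for *Rapsn*. The share of genes that lay nearer was 60.1%, 20.2%, 6.52% and 48.2%, so *Ache* and *Kcnma1* were nearer than the typical gene.

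The other genes of cholinergic transmission were taken as lists, with 1 probe per gene, the brightest one. As a reference, of all 17411 RefSeq-named genes compared between DT-treated and untreated OHC-TRECK mice, 1.37% were lower and 2.61% higher, with a median of -0.01 over the 16477 that had a fold. For the members the same reading gave 2 lower of 6 genes, 0 higher and a median of -0.27.

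Among 14 other subunits of nicotinic receptors, 9 were well above background on at least 1 array, and *Chrna3*, *Chrna5*, *Chrnd*, *Chrne* and *Chrng* were not. In DT-treated against untreated OHC-TRECK mice 1 of 9 was lower and 1 higher, with a median of -0.11, and against DT-treated wild-type mice 1 of 7 was lower and 0 higher, with a median of 0.05. The lower one was *Chrna6*, a subunit of receptors on catecholamine neurons, with levels of -3.07 in untreated and -3.97 in DT-treated wild-type mice and -4.24 in untreated OHC-TRECK mice. In DT-treated OHC-TRECK mice it sank below that limit, a decrease of at least 2.30-fold from untreated OHC-TRECK mice. Unlike *Chrna9* and *Chrna10*, it was highest in untreated wild-type mice. *Chrnb3*, which assembles with *Chrna6* in neurons, was at least 3.58-fold higher in DT-treated than in untreated OHC-TRECK mice. *Chrna1* of the muscle receptor had levels of -3.42, -3.25, -2.98 and -2.75 in the order used above and passed 2-fold nowhere.

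The muscarinic receptors, which couple acetylcholine to G proteins, were mostly dim. Of 5 genes, 4 were well above background on some array but only *Chrm1* on all 4, and 0 passed 2-fold in the 3 comparisons of DT-treated OHC-TRECK mice. Against untreated OHC-TRECK mice 3 were compared, and the median over the 2 that had a fold was 0.14.

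On the presynaptic side, 5 of 6 genes that make, load, release or break down acetylcholine were well above background on all arrays, and *Slc5a7*, the choline transporter, on none. Of these 5, 0 were past 2-fold in DT-treated OHC-TRECK mice against any other group. *Chat*, which synthesises acetylcholine, had levels of -2.14 in untreated and -2.85 in DT-treated wild-type mice, -2.85 in untreated OHC-TRECK mice and -3.11 in DT-treated OHC-TRECK mice. In DT-treated against untreated OHC-TRECK mice, *Slc18a3*, the vesicular transporter, had a log2 ratio of -0.13, *Bche*, the second cholinesterase, of 0.05 and *Colq*, which anchors *Ache* to the matrix, of -0.66. The medians were -0.25 against untreated OHC-TRECK mice, and -0.25 against DT-treated and -0.68 against untreated wild-type mice.

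All 8 genes of receptor assembly and clustering were measured on all 4 arrays, and 0 of 8 passed 2-fold in any of the 5 comparisons. They include the partners of *Rapsn* at the nerve-muscle junction, the kinase *Musk*, its adaptor *Dok7*, its coreceptor *Lrp4* and the matrix signal *Agrn*. Of these, *Musk* was 1.11-fold higher, *Dok7* 1.20-fold lower, *Lrp4* 1.09-fold higher and *Agrn* 1.04-fold lower in DT-treated than in untreated OHC-TRECK mice. The list's median was -0.11, with single genes on either side of 0.

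Beside *Kcnn2* and *Kcnma1*, 6 of 9 other calcium-activated potassium channels and their subunits were well above background on at least 1 array, while *Kcnn1*, *Kcnmb1* and *Kcnmb3* were not. *Kcnn4*, the intermediate-conductance channel known from blood and immune cells, was the only one called in DT-treated OHC-TRECK mice against untreated OHC-TRECK or DT-treated wild-type mice, and it was higher. Its levels were -3.13 in untreated and -2.56 in DT-treated wild-type mice, -2.94 in untreated OHC-TRECK mice and -1.31 in DT-treated OHC-TRECK mice, or 3.09-fold above untreated OHC-TRECK and 2.39-fold above DT-treated wild-type mice. *Kcnmb2* and *Kcnmb4*, auxiliary subunits of the channel of *Kcnma1*, were 1.35-fold and 1.24-fold lower than in untreated OHC-TRECK mice. *Lrrc52*, another auxiliary subunit, was at least 2.20-fold lower than in untreated wild-type mice, and at least 1.88-fold below untreated OHC-TRECK and 1.93-fold below DT-treated wild-type mice, so that it may also have passed 2-fold there. Over the 6 compared, the median was -0.23 against untreated OHC-TRECK mice.

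Calcium stores lie beneath the efferent synapse, and of 11 genes of calcium stores and entry 10 were measured on all 4 arrays, with *Ryr1* not well above background. In the 5 comparisons, 0 of the 10 passed 2-fold. The receptors for ryanodine *Ryr2* and *Ryr3* and those for inositol trisphosphate *Itpr1* and *Itpr2* had folds of 1.03, 1.49, 1.09 and 1.19 between DT-treated and untreated OHC-TRECK mice, with *Ryr3* lower. Of 4 genes of the efferent peptide CGRP and its receptor, 3 were compared. *Calcb* was well above background in untreated wild-type and DT-treated OHC-TRECK mice only, at -3.57 and -4.80, and was thus at least 3.01-fold higher than in untreated OHC-TRECK mice and 2.35-fold lower than in untreated wild-type mice. *Calca* and *Ramp1* were 1.24-fold and 1.05-fold higher than in untreated OHC-TRECK mice by their brightest probes. The dimmer *Calca* probe, A_52_P154101, was 1.70-fold higher, and it was 2.25-fold above DT-treated wild-type mice where the brighter one was 1.04-fold above them.

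**Figure D3:**
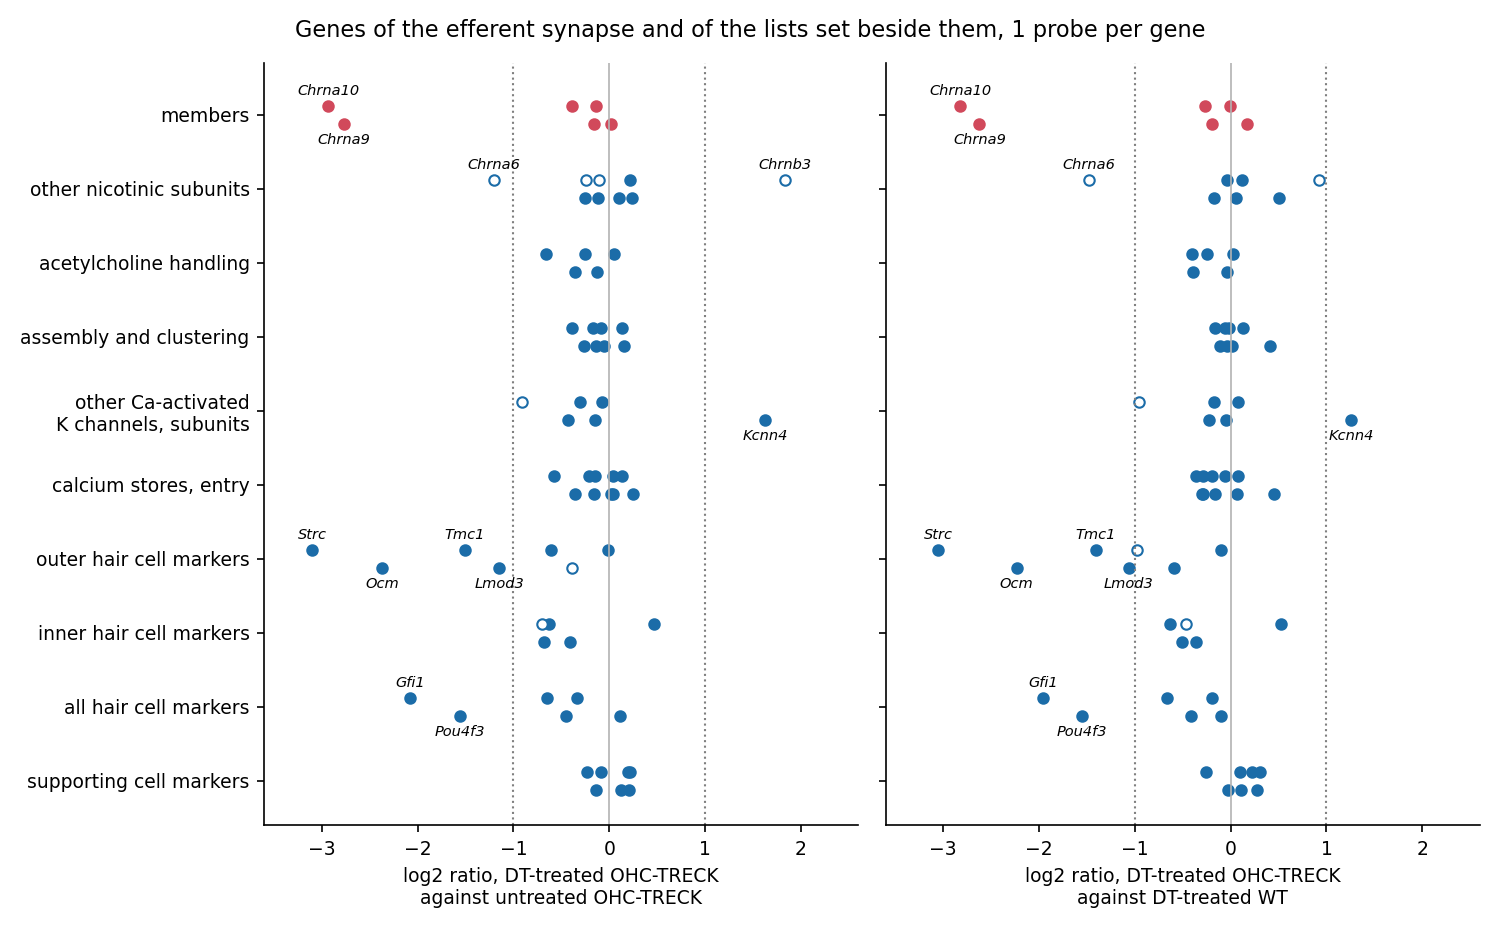
Log2 ratio (x axes) of DT-treated OHC-TRECK mice against untreated OHC-TRECK mice (left) and DT-treated wild-type mice (right), 1 point per gene, for the 6 members (red) and the genes of 9 lists (blue); open points are bounds and dotted lines mark 2-fold. In both panels the ratios of *Chrna9* and *Chrna10* lie between those of *Strc* and *Ocm*, and the other 4 members lie between -0.39 and 0.17.

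Markers of the cells that carry or surround the synapse were read in the same way. Of 7 OHC markers, 4 were lower and 0 higher in each of the 3 comparisons of DT-treated OHC-TRECK mice, with medians of -1.15, -1.06 and -1.09. These were *Ocm*, *Strc*, *Tmc1* of the transduction channel and *Lmod3*, whereas *Ikzf2* was 1.01-fold lower than in untreated OHC-TRECK mice. Of the 6 markers of all hair cells that were compared, *Gfi1* and *Pou4f3*, both transcription factors, were lower in each of these comparisons, while no array had *Cdh23* well above background. *Gfi1* also varied among the other 3 arrays, with levels of -0.34, 0.59 and 0.71 in untreated and DT-treated wild-type and untreated OHC-TRECK mice. It was thus 2.07-fold higher in untreated OHC-TRECK than in untreated wild-type mice, and its decrease was 4.23-fold from the former but 2.04-fold from the latter. The summed signal of that list was 33.3, 27.7, 30.4 and 23.1 in the order of groups above, of which *Pvalb*, also known from neurons, made up nearly all. The other markers of the list summed to 1.70, 2.59, 2.71 and 1.14. The 5 inner hair cell markers had medians of -0.63, -0.47 and -0.54 with 0 past 2-fold, and sums of 10.8, 10.1, 10.7 and 8.63, with *Calb2* brightest. One of them, *Tbx2*, was instead higher in all 3 comparisons (0.47, 0.52 and 0.57), and without *Calb2* the sums were 4.49, 4.74, 4.90 and 4.89. The part of these hair cell lists in the lower *Chrna9* and *Chrna10* signal was not tested.

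For the members also known from other cell types, the markers of those cells showed no called difference in DT-treated against untreated OHC-TRECK mice. Of all named genes compared, 1.37% were lower and 2.61% higher, so 0 calls in lists this short says little. The part of these cells in the levels of those members was not tested. Past 2-fold were 0 of 7 neuron markers (sums of 151, 128, 139 and 122, *Nefh* brightest), 0 of 4 smooth muscle markers (5.44, 4.88, 5.34 and 4.83, *Tagln* brightest) and 0 of 7 supporting cell markers (136, 129, 135 and 155, *Gjb6* brightest). The markers of skeletal muscle, a tissue known for *Rapsn*, *Ache* and *Chrna1*, were dim, with sums of 0.12, 0.10, 0.11 and 0.09, *Acta1* brightest, and *Ckm* and *Actn3* not well above background on any array. Markers of blood cells differed between the arrays in other ways than the members did. Of 6 erythroid markers, 3 were higher in DT-treated than in untreated wild-type mice and 3 were lower in DT-treated OHC-TRECK than in DT-treated wild-type mice, with sums of 65.1, 82.6, 78.1 and 84.7 and *Hba-a1* brightest. Another direction was that of *Slc4a1* in DT-treated OHC-TRECK mice against both untreated groups, 3.10-fold above OHC-TRECK and 2.52-fold above wild-type mice. Of 5 platelet markers, *Ppbp* and *Gp9* were lower in either OHC-TRECK group than in untreated wild-type mice, lower in DT-treated OHC-TRECK than in DT-treated wild-type mice (27.7-fold for *Ppbp*) and higher in DT-treated than in untreated wild-type mice, with sums of 3.05, 4.70, 1.61 and 2.42 and *Pf4* brightest.

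The genes next to the members were read within 25 kb of each member probe, a window chosen after the values were seen. Beside *Chrna10*, a probe of *Art1* (an ADP-ribosyltransferase) lies 326 bases away on the opposite strand, at mm9 chr7:109259395-109259454. *Art1* had levels of -3.21 in untreated and -3.55 in DT-treated wild-type mice and -3.42 in untreated OHC-TRECK mice, and no signal well above background in DT-treated OHC-TRECK mice. It was thus at least 3.64-fold lower than in untreated OHC-TRECK mice and no less than 3.31-fold below DT-treated wild-type mice, on the same array as *Chrna10*. *Art5*, 14.1 kb from the *Chrna10* probe on the same strand, was 1.86-fold lower than in untreated OHC-TRECK mice by one probe and 1.29-fold lower by the other. Against untreated wild-type mice the same *Art5* probes were 2.05-fold and 1.57-fold lower, so that the former passed 2-fold there. They were 1.68-fold and 1.53-fold lower against DT-treated wild-type mice. Of *Xntrpc*, on the same side as *Art5*, one probe was 1.05-fold lower and the other 1.17-fold higher than in untreated OHC-TRECK mice. On the far side *Nup98* was 1.33-fold higher than in these mice. The probes near *Ache* (4 genes) and near *Rapsn* (3 genes) differed by at most 1.16-fold between DT-treated and untreated OHC-TRECK mice.

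Since *Chrna9* and *Chrna10* moved together, the 250 bases upstream of their transcription starts are given, as listed in RefSeq for GRCm38.p6, where 4 of the 6 members have an entry and *Kcnn2* and *Rapsn* have none. Capitals mark the motifs CANNTG, the general binding sequence of basic helix-loop-helix factors, and AAATCA, which holds the core sequence bound by GFI1, both searched on both strands.
Chrna9, plus strand, chr5:65966874-65967123: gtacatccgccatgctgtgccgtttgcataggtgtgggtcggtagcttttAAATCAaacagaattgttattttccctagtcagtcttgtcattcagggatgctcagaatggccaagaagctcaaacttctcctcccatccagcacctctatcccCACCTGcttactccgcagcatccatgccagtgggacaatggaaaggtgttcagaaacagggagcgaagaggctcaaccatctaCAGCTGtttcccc
Chrna10, minus strand, chr7:102116714-102116963: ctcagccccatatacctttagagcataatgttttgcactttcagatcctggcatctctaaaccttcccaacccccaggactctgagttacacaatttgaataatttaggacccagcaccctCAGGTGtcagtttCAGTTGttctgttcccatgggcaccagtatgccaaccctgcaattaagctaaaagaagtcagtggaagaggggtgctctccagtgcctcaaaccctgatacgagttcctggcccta
Each held 2 places with CANNTG, *Ache* held 1 and *Kcnma1* 0, and AAATCA occurred in 1 place, upstream of *Chrna9*. Of 32851 such upstream sequences, 66.2% held CANNTG and 12.4% held AAATCA, and the motifs overlapped nowhere in the sequences printed.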

How the data were processed

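The authors hybridised Cy3-labelled RNA to Agilent mouse arrays and deposited the intensity of each spot from Feature Extraction 11.5.1.1, background-subtracted but not scaled between arrays. A table of scaled signal that the authors deposited was used as an alternative. It holds the same intensity on a linear scale divided by 1 constant per array, with medians of 0.086, 0.085, 0.083 and 0.085, and is not centred. Of 44397 features, 1377 controls and 149 to 228 outlier spots per array were left out, and 0 spots were saturated. Repeated spots were averaged, with a flag taken over when more than 0.5 of the spots carried it. Between 62.2% and 70.6% of probes were well above background. The error of a ratio is the root of the summed squares of both spot errors.

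The members, the 16 other lists with 111 genes and the rules were chosen with earlier results of these data known. Named are all member probes, list genes past 2-fold against untreated OHC-TRECK or DT-treated wild-type mice, and otherwise up to 4 per list, and the 5 genes nearest to the receptor profile. Other names followed from counts or values seen. For 1 gene of the lists, its own result is not reported here. RefSeq gave names by symbol for 29803 probes, accession for 1634 and synonym for 295, and the other 7697 kept the array's name. Python 3.11.15, numpy 2.4.6, pandas 2.3.3, matplotlib 3.10.9, R 4.3.3 and limma 3.58.1 were used, and the steps were tested on simulated data. The 9 alternatives concerned the floor, the filter on dim probes, the fold threshold, the background correction (normexp with an offset of 50), the scaling, or the authors' scaled table as the source.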

Additional observations from a re-analysis of the deposited data

Results flagged for a closer look

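The effect of DT differed between the genotypes for both receptor subunits. On the log2 scale, the DT effect in OHC-TRECK mice minus that in wild-type mice was -3.12 for *Chrna9* (A_51_P381069) and -3.21 for *Chrna10*, since both were lower after DT in OHC-TRECK mice and slightly higher after DT in wild-type mice. With 1 array per group, this difference was not tested.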

How the results depend on the processing

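The same 2 probes, *Chrna10* and *Chrna9* A_51_P381069, were lower in the 3 comparisons of DT-treated OHC-TRECK mice under all 9 alternatives, and 0 members were called in the other 2 comparisons. The settings for dim signals leave the member ratios as they are. Under the 4 alternatives that act on them, 217 of 220 log2 ratios stayed within their error and 3 moved further, all of *Chrna9* A_51_P381069 with the normexp correction (-2.39 against untreated OHC-TRECK, -2.26 against DT-treated and -1.95 against untreated wild-type mice), as did its difference of DT effects (-2.70). The cause was not tested. *Chrna10* kept between -2.94 and -2.74 against untreated OHC-TRECK mice. Signs turned only near 0, for ratios of *Rapsn*, the upstream *Chrna9* probe, *Kcnma1* A_55_P2378486 and *Ache* A_55_P2109326, and for the difference of DT effects of *Kcnma1* A_51_P187352 and *Ache* A_55_P2109327.

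The counts over all probes depended more on the processing. Without a detection filter, 1546 probes were lower and 1441 higher in DT-treated against untreated OHC-TRECK mice (378 and 700 as reported), against 157 lower with normexp and 291 higher among probes well above background on all arrays. In the other comparisons these same settings spanned 241 to 1313 lower and 149 to 1199 higher against DT-treated wild-type mice (464 and 359 as reported), and 224 to 1772 and 214 to 1197 against untreated wild-type mice (522 and 525). They spanned 58 to 1180 and 146 to 894 for DT in wild-type mice (291 and 390), and 129 to 1291 and 55 to 953 for the transgene (658 and 286). Against untreated wild-type mice, quantile normalization moved the share of higher among called probes from 50.1% (522 lower, 525 higher) to 60.7% (423 lower, 653 higher). Leaving out the floor on dim signals moved it to 35.6% (1104 lower, 609 higher). In the same way it reversed the balance in DT-treated against untreated OHC-TRECK mice, from 64.9% to 35.8% (1253 lower, 700 higher), and for DT in wild-type mice, from 57.3% to 38.9% (708 lower, 450 higher), and for the transgene it gave 47.0% (737 lower, 653 higher) in place of 30.3%. Normexp moved the share against DT-treated wild-type mice from 43.6% to 57.6% (242 lower, 329 higher). Which direction prevails over all probes thus depends on the processing in 4 of the comparisons. Signal over background limits the upstream *Chrna9* probe and *Kcnma1* A_51_P187352, whose spots were as little as 8.55 and 8.03 times their background.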

Other observations

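When every probe was included, with or without a RefSeq name, 10 of the 20 probes nearest to the profile of *Chrna9* and *Chrna10* lay on chromosome 14, between 42.6 and 63.1 Mb (mm9), whereas 3.63% of all 23677 probes compared lie on that chromosome. The nearest of all, A_55_P1958544 (1700016D02Rik, chr14:42615426-42615485), was at a distance of 0.13, with log2 levels of -1.35 in untreated and -1.14 in DT-treated wild-type mice, -0.84 in untreated OHC-TRECK mice and -3.71 in DT-treated OHC-TRECK mice. A_55_P2019838 (LOC102635555, chr14:44867621-44867680) had 0.07, 0.19, 0.40 and -2.08 in the same order. All 10 were lowest in DT-treated OHC-TRECK mice, which follows from their choice by nearness to the profile of *Chrna9* and *Chrna10*. Some of them share sequence, since 3 of their 45 pairs held a common run of 20 bases or more, but the median longest run was 6 bases. Of 290 probes in the interval, 13 (4.48%) were at least 2-fold lower in DT-treated than in untreated OHC-TRECK mice, beside 0.68% of all 23677. Without the 10 probes that mark the interval, 3 of 280 (1.07%) were, and the median log2 ratio over the 290 was 0.01. A single probe sets the upper end. Without it, the other 9 lie between 42.6 and 52.2 Mb, where 11 of 88 probes (12.5%) were 2-fold lower, or 2 of 79 (2.53%) without these 9. This interval was noticed in the values, and no cause was tested. Its distance from the insertion of the transgene in the E3 region of this chromosome was not worked out.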
